A study of Mus musculus with 20 samples.

Results

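Regulatory T cells (Tregs, the CD4 T cells that restrain immune responses) lacking the GTPases RagA and RagB were compared before and after stimulation for 8 h. The comparison rests on 4 of the 20 arrays in the series, chosen by their titles: 2 arrays of unstimulated and 2 of stimulated RagAB KO Tregs. All 19505 genes with a named probe set were tested. The 4 other arrays of the Rag experiment hold WT Tregs in the same states, again 2 for each, and the remaining 12 arrays hold WT and Rheb1/2 KO Tregs of a separate experiment, 3 for each genotype and state. Every array was made from sorted CD4+CD25+ Tregs of C57BL/6 background. The sources used here do not give the stimulus, the way in which the genes were deleted, the age of the mice or how long the Tregs of the Rheb experiment were stimulated. Whether both arrays of a group stem from different mice is not labelled, so p-values cover the spread between arrays only, which may be technical, and 2 arrays a group limit the precision. In such bulk samples, fewer cells of a type and less RNA per cell cannot be told apart.

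RagA and RagB pair with RagC or RagD on the lysosome, and when amino acids are present these pairs bring the kinase complex mTORC1 to the lysosomal surface, where the GTPase Rheb switches it on. mTORC1 promotes the synthesis of proteins, lipids and nucleotides. A T cell whose receptor is engaged switches on transcription factors within minutes, then cytokine and receptor genes, and over the following hours the genes for growth. Tregs follow the same order and also switch on the genes of their activated, or effector, state. The comparison asks which genes respond to stimulation in Tregs that cannot signal amino acid sufficiency through RagA and RagB.

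Values are the deposited gene-level signals on a log2 scale, and a change is the stimulated mean minus the unstimulated mean on that scale, with the standard error (SE) of the fit. The 8 arrays of the Rag experiment had medians between 7.18 and 7.55. Unstimulated RagAB KO array 1 stood apart, with an interquartile range of 2.64 against 2.79 to 3.11 in the 7 others, and its strongest signals were the lowest of the 8 (99th percentile 11.3). Counts of calls, many list medians and some gene changes are therefore also given after quantile normalization of the 8 arrays, which forces them onto 1 distribution. That step moved the median change of all genes from 0.09 to -0.05, a shift of -0.14. The shift was not equal for all genes. List medians went from 0.65 to 0.02 for cytosolic ribosomal proteins, from 0.81 to 0.35 for core Treg genes and from 0.17 to 0.05 for chemokine ligands. The shift of all genes therefore does not stand for that of a single gene or list.

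Rraga, which encodes RagA, read 6.67 and 6.99 in the unstimulated and 7.17 and 7.499 in the stimulated RagAB KO arrays, against 9.19 and 9.33 in unstimulated and 9.76 and 9.28 in stimulated WT arrays. All 4 knockout arrays lay below all 4 WT arrays. The difference was -2.43 ± 0.25 (SE, n = 2 arrays a group) without stimulation (adjusted p = 0.00266) and -2.18 ± 0.25 with it (adjusted p = 0.00448), where limma called 0.113% and 0.103% of all genes. The unstimulated call ended without either unstimulated WT array (-2.50 without array 1, -2.36 without array 2), and the stimulated call ended without stimulated RagAB KO array 1 (-2.02). Rragb, which encodes RagB, read 6.56 and 7.42 in unstimulated and 7.38 and 6.94 in stimulated knockout arrays, inside the range of the WT arrays, 6.98 to 7.62, in 2 of the 4 arrays. Its signal did not separate the genotypes, and where its probes lie relative to the deletion is not given in the sources used here. Neither gene changed with stimulation in the knockout (Rraga 0.51, adjusted p = 0.398, and Rragb 0.17, adjusted p = 0.940).

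The 7 measured T cell markers (among them Cd3d, Cd3e and Cd4) had a mean signal of 10.94 and 11.44 in the unstimulated and 11.37 and 11.35 in the stimulated knockout arrays, and none was called. Foxp3, which defines Tregs, was not analysed here. Of the 8 measured Treg markers, Il2ra, Tnfrsf18 and Gpr83 rose. Marker lists of other cells that a sort could admit gave no call among 13 macrophage, 9 B cell, 10 NK cell, 5 CD8 T cell, 9 neutrophil and 3 red cell genes, and 1 of 12 dendritic cell genes fell (Ccr9, which T cells also express). None of 6 conventional CD4 T cell markers was called. Their mean signals were 7.66 and 8.04 in unstimulated and 7.98 and 8.02 in stimulated knockout arrays. Whether such cells were present, and their part in the results, was not tested. The neutrophil list differed between the arrays of each state, with mean signals of 6.92 and 6.73 in unstimulated and stimulated array 1 and of 9.04 and 8.76 in unstimulated and stimulated array 2. Its part in the results was not tested.

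Stimulation changed 258 genes in RagAB KO Tregs (limma, Benjamini-Hochberg adjusted p below 0.05, 1.32% of all genes tested). Of these 234 rose (1.2%) and 24 fell (0.123%). Each count of calls in a list below is to be read beside these shares. With so few falls among all genes, a list without a called fall is unremarkable, and 1 call says little about a list. The largest rise was that of Ramp3 (3.52) and the largest fall that of Dtx1 (-3.12), and all 258 changes exceeded 2-fold, with a median size of 1.54. After quantile normalization 417 genes were called (2.14%), of which 248 rose (1.27%) and 169 fell (0.866%), so the share of rises among the calls went from 90.7% to 59.5%. Both sets of values called 233 genes, 209 rising and 24 falling, which is 90.3% of the calls on deposited values and 55.9% of those after quantile normalization. All 24 falls were thus called under both scalings, and no gene was called in opposite directions. Stimulated and unstimulated knockout arrays failed to overlap for 45.7% of all genes. They did so for all 258 called genes, so separate arrays of a called gene add no support to its call.

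**Figure D1:**
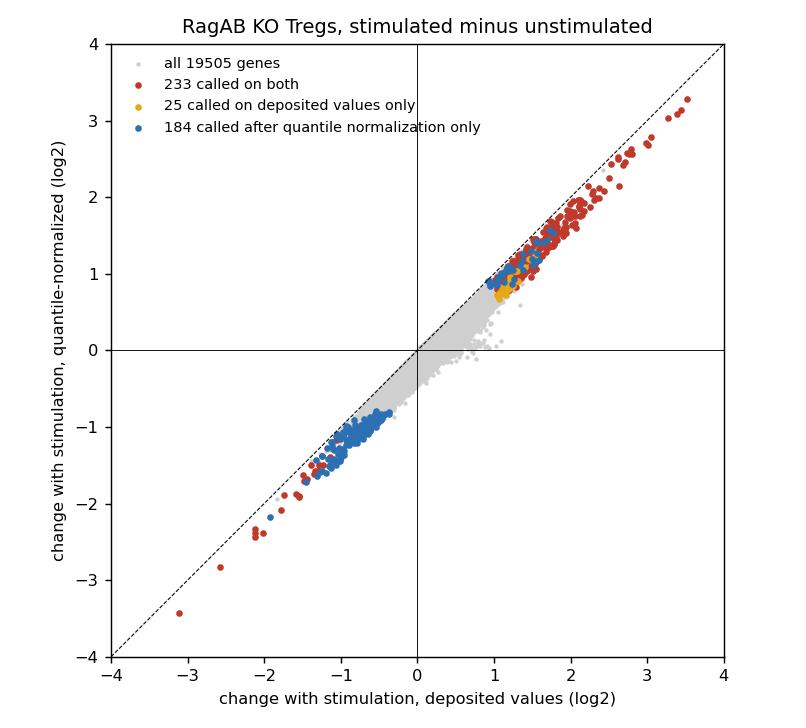
Each point is 1 gene, with its change on stimulation in RagAB KO Tregs on deposited values (x axis, log2) and after quantile normalization of the 8 arrays (y axis, log2); colours mark the calls and the dashed line marks equality. Nearly all points lie below the dashed line, and the genes called only after quantile normalization are mostly falls, which takes the count of called falls from 24 to 169.

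The count depended on single arrays. Without stimulated array 1 or without stimulated array 2 of the knockout, 45 genes were called, and without unstimulated array 1 the count was 132 (94 rising, 38 falling). Without unstimulated array 2 it was 1948 (1853 rising, 95 falling), where the only unstimulated knockout array left is the one of narrow range. Leaving out either unstimulated WT array gave 177 calls and either stimulated WT array 198, since the WT arrays share the estimate of spread with the knockout. A group left with 1 array is assumed to vary like the others. Leaving out an array also leaves fewer degrees of freedom, so a call can end although the change holds or grows. The end of a call therefore does not show that the change came from the array left out.

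A core of 29 genes was called whichever of the 8 arrays was left out, and all 29 were also called after quantile normalization. It holds 25 rising genes: the transcription factors Nfil3, Fosl2, Nr4a3 and Irf4, the cytokines Il4 and Ifng, the interferon-induced GTPases Gbp2, Iigp1 and Igtp, the surface proteins Tigit, Gpr183, Sema7a and Alcam, the cell cycle inhibitor Cdkn1a, the NAD synthesis enzyme Nampt, and Ramp3, Zdhhc23, Mpzl1, Errfi1, Olfr1396, Insl6, Kpna1, Zfp948, Gm12250 and Gm4951. The 4 falling genes of the core were Dtx1, Ccr9, Sit1 and Car11. Olfr1396 read 5.04 and 5.55 without and 8.08 and 7.75 with stimulation. It carries an olfactory receptor name, and, like 10 other rising genes, lay below the 25th percentile of both arrays before stimulation, so that the size of its rise is less certain than that of brighter genes. Ramp3, a partner protein of peptide hormone receptors, went from 6.89 and 7.25 to 11.13 and 10.05. Zdhhc23, a palmitoyltransferase, went from 7.29 and 8.26 to 11.05 and 10.60, and Mpzl1, a cell surface glycoprotein, from 7.36 and 7.95 to 10.35 and 10.38. In all 4 genes both stimulated arrays lay above both unstimulated ones by over 2 units of log2.

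**Figure D2:**
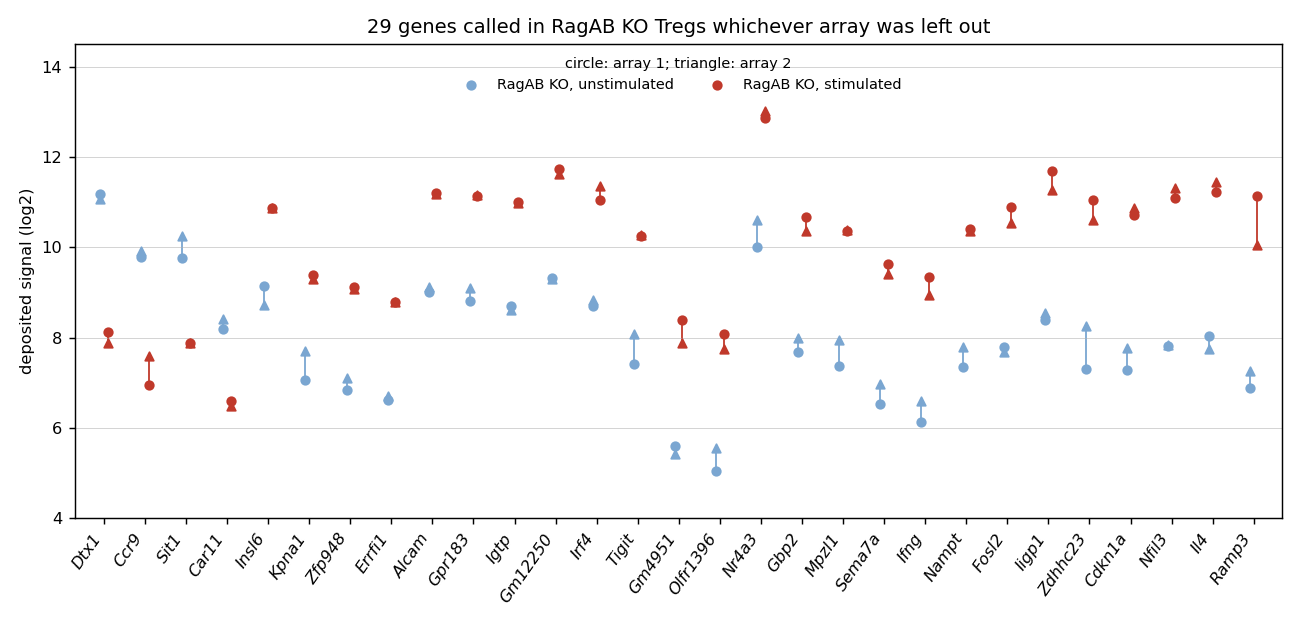
Deposited signal (log2) of the 29 genes called whichever array was left out, in the 2 unstimulated (blue) and 2 stimulated (red) RagAB KO arrays, ordered by change; a line joins the 2 arrays of a group. The 4 genes at the left fell and the 25 others rose. In none of the 29 do the groups overlap, which held for every called gene and for 45.7% of all genes.

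Some of the transcription factors that follow antigen receptor signalling rose, and others fell or were not called. Of 9 measured NR4A and EGR genes, orphan nuclear receptors and zinc finger factors induced by calcium and MAPK signals, 4 rose and none fell (median change 0.78, and 0.39 after quantile normalization). Nr4a3 read 10.01 and 10.60 without and 12.86 and 13.02 with stimulation, a rise of 2.64 ± 0.30 (6.22-fold, adjusted p = 0.0011, 2.14 after quantile normalization). Nr4a1, the reporter gene of T cell receptor signal strength in many studies, went from 9.79 and 10.40 to 11.92 and 12.07 (1.90 ± 0.28, adjusted p = 0.00483). Both genes were already bright before stimulation, and their 4 arrays fell into separate ranges, as for every called gene. Egr1 (1.78 ± 0.32, adjusted p = 0.0157) and Egr2 (1.93 ± 0.35, adjusted p = 0.0172), a factor linked to T cell anergy, rose as well. Within the effector Treg list 8 of 26 genes rose and none fell (median 0.84, 0.53 after quantile normalization). Irf4, which is required for effector Treg differentiation, went from 8.70 and 8.84 to 11.04 and 11.36 (2.43 ± 0.30, adjusted p = 0.00206). Nfil3, a basic leucine zipper repressor induced by IL-4 and antigen, went from 7.82 and 7.83 to 11.10 and 11.31 (3.38 ± 0.41, 10.4-fold, adjusted p = 0.00188). Tbx21, which encodes the Th1 factor T-bet, went from 8.71 and 8.39 to 10.84 and 10.86 (2.30 ± 0.43, adjusted p = 0.0196). The replicate arrays of these 3 factors differed by far less than the rise.

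AP-1 members went in both directions. Of 14 measured AP-1 and ATF genes 2 rose and 2 fell, and the median change was 0.15 on deposited values but -0.22 after quantile normalization. Fosl2, which encodes the FOS-related protein FRA2, went from 7.79 and 7.68 to 10.90 and 10.55 (2.99 ± 0.30, 7.93-fold, adjusted p = 0.000733). Atf3, a stress-induced repressor, rose by 2.11 ± 0.28 (adjusted p = 0.00323). Fos, in contrast, read 9.94 and 10.65 without and 8.42 and 8.61 with stimulation (-1.78 ± 0.28, adjusted p = 0.00708), and Fosb went from 10.47 and 11.82 to 9.15 and 9.11 (-2.01 ± 0.40, adjusted p = 0.0262). Fos and Fosb are immediate early genes whose transcripts last for minutes, and both were bright in the unstimulated cells. They and Atf3 and Egr1 are also the 4 called members, 2 rising and 2 falling, of a list of 20 genes induced by tissue dissociation, whose median change was -0.11 (-0.29 after quantile normalization). Feedback inhibitors of MAPK and growth factor signalling held 2 rises among 12 genes (median 0.31, 0.11 after quantile normalization). Errfi1, which inhibits the EGF receptor family, rose by 2.12 ± 0.24 (adjusted p = 0.0011) and Dusp4, an ERK phosphatase, by 2.02 ± 0.33 (adjusted p = 0.00983). None of the 17 measured NF-kB subunits and inhibitors was called (median 0.53, 0.10 after quantile normalization). The largest uncalled change among them was that of Rel, which encodes the subunit c-Rel, from 10.21 and 11.29 to 12.06 and 12.13 (1.34 ± 0.31, adjusted p = 0.0541). Rel was also not called after quantile normalization (0.91, adjusted p = 0.0658) or with the 4 knockout arrays alone (adjusted p = 0.205). It was called at 1.24 when arrays were centred on their medians, at 1.88 without unstimulated array 2 and, at 1.34, without the 40% of genes of lowest signal (adjusted p = 0.0153), with a trended prior (0.0321) and with all 20 arrays in the fit (0.00068).

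Among these factors and inhibitors, Nr4a3, Fosl2, Irf4, Nfil3 and Errfi1 kept their calls whichever array was left out. Without unstimulated array 1 the calls of Egr1 (1.36) and Egr2 (1.61) ended. Without stimulated array 1 those of Egr1 (1.98), Egr2 (2.09), Tbx21 (2.31), Dusp4 (1.93), Fos (-1.69) and Fosb (-2.03) ended, and without stimulated array 2 those of Nr4a1 (1.82), Egr1 (1.58), Egr2 (1.77), Atf3 (1.76), Tbx21 (2.29), Dusp4 (2.12), Fos (-1.87) and Fosb (-1.99). The call of Fosb also ended without either unstimulated WT array, at an unchanged -2.01. Without unstimulated array 2, the brighter of the unstimulated knockout arrays for Fosb, its change was -1.34.

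Several genes of the TNF superfamily and of inhibitory receptors rose. Of 18 TNF receptor superfamily genes and ligands, 4 rose and none fell (median 0.62, 0.40 after quantile normalization). Tnfrsf9, which encodes 4-1BB, went from 10.41 and 10.87 to 12.83 and 12.58 (2.07 ± 0.33, adjusted p = 0.00782). Tnfrsf18, which encodes the Treg receptor GITR, went from 11.21 and 11.80 to 12.92 and 13.07 (1.49 ± 0.33, adjusted p = 0.0469), a call close to the threshold. The other called members were the death ligand Fasl (1.45 ± 0.27, adjusted p = 0.0190) and the CD30 ligand Tnfsf8 (1.36 ± 0.30, adjusted p = 0.0444). Of 20 inhibitory and costimulatory receptors and ligands, 3 rose and none fell (median 0.78, 0.39 after quantile normalization). Tigit, an inhibitory receptor of effector Tregs, went from 7.43 and 8.09 to 10.25 and 10.28 (2.51 ± 0.29, 5.68-fold, adjusted p = 0.00118). Cd274, which encodes PD-L1, went from 9.26 and 9.76 to 11.22 and 11.46 (1.83 ± 0.25, adjusted p = 0.00331), and Havcr2, which encodes TIM-3, from 5.30 and 5.73, both below the 25th percentile of their arrays, to 7.37 and 7.71 (2.03 ± 0.35, adjusted p = 0.0131). For all 3 the lower stimulated array lay well above the higher unstimulated one. Ctla4, the inhibitory receptor by which Tregs strip B7 ligands, read 10.50 and 10.90 without and 11.74 and 11.60 with stimulation, a difference that was not called (0.97 ± 0.24, adjusted p = 0.0739, 0.55 after quantile normalization). Nor was Ctla4 called with a trended prior (adjusted p = 0.165) or with the 4 knockout arrays alone (adjusted p = 0.166). It was called at 1.17 without unstimulated array 2 and at 0.97 with all 20 arrays in the fit (adjusted p = 0.000801).

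In the list of core Treg genes 3 of 19 rose and none fell (median 0.81, 0.35 after quantile normalization). Il2ra, which encodes CD25, the marker used for the sort, went from 7.72 and 7.76 to 9.17 and 9.16 (1.43 ± 0.24, adjusted p = 0.0109). Gpr83, an orphan receptor typical of Tregs, went from 10.09 and 10.70 to 11.77 and 12.08 (1.53 ± 0.26, adjusted p = 0.0110). Tnfrsf18 is the remaining called member. Ikzf2, which encodes Helios, read 10.28 and 11.32 without and 11.27 and 10.80 with stimulation. These ranges overlap, and its difference of 0.24 ± 0.35 (adjusted p = 0.918) turned to -0.18 after quantile normalization. Trafficking receptors changed one by one, with 2 rises and 1 fall among 17 genes and a median of -0.30 (-0.36 after quantile normalization). Ccr8, a receptor of effector Tregs in tissues, went from 9.38 and 10.12 to 12.05 and 11.96 (2.26 ± 0.33, adjusted p = 0.00511), and Gpr183, the oxysterol receptor EBI2, from 8.81 and 9.11 to 11.13 and 11.15 (2.18 ± 0.25, adjusted p = 0.0011). The semaphorin Sema7a rose by 2.76 ± 0.29 (adjusted p = 0.00103). Among 17 integrin and adhesion genes, the integrin chain Itgb3 (1.39 ± 0.28, adjusted p = 0.0275) and the hyaluronan receptor Cd44 (1.39 ± 0.29, adjusted p = 0.0344) rose, while the median of 0.29 turned to -0.12 after quantile normalization.

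Of the receptor and ligand genes named above, Tigit, Gpr183 and Sema7a kept their calls whichever array was left out. Without unstimulated array 1 the calls of Tnfrsf18 (1.19), Tnfsf8 (0.98), Fasl (1.27), Gpr83 (1.22), Itgb3 (1.02) and Cd44 (1.18) ended. Without stimulated array 1 the calls of those 6 genes ended (1.56, 1.24, 1.25, 1.69, 1.22 and 1.52, in that order), as did those of Tnfrsf9 (1.95), Havcr2 (2.20), Il2ra (1.43) and Ccr8 (2.21). Without stimulated array 2 the calls of the same 6 ended (1.41, 1.48, 1.64, 1.37, 1.57 and 1.25), as did those of Tnfrsf9 (2.19), Havcr2 (1.86), Cd274 (1.71) and Il2ra (1.43). At unchanged values, Tnfrsf18, Tnfsf8 and Itgb3 also lost their calls without either unstimulated WT array, and Tnfrsf18, Tnfsf8 and Cd44 without either stimulated WT array.

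Cytokine genes were induced selectively: of 27 measured, 5 rose and none fell (median 0.39, 0.26 after quantile normalization). Il4, the Th2 cytokine, went from 8.03 and 7.75 to 11.21 and 11.45 (3.44 ± 0.47, 10.9-fold, adjusted p = 0.00331). Ifng, which encodes interferon gamma, went from 6.13 and 6.59 to 9.34 and 8.94 (2.78 ± 0.39, 6.88-fold, adjusted p = 0.00392). Il1rn, the antagonist of the IL-1 receptor, went from 6.24 and 6.47 to 9.18 and 8.99 (2.73 ± 0.47, adjusted p = 0.0123). In each of these 3 genes the stimulated arrays were over 2 log2 units above the unstimulated ones. The growth factor genes Il3 (1.63 ± 0.32, adjusted p = 0.0218) and Csf2 (1.36 ± 0.26, adjusted p = 0.0203) rose from low signals, Il3 from below the 25th percentile of both arrays, and their stimulated arrays differed from each other (6.49 and 7.59 for Il3, 7.75 and 8.28 for Csf2). Of 12 chemokine ligands, Ccl1, the ligand of CCR8, rose by 1.99 ± 0.33 (adjusted p = 0.0102) and the inflammatory chemokine Ccl4 by 1.75 ± 0.24 (adjusted p = 0.00331), while the median of the list was 0.17 (0.05 after quantile normalization). The calls of Il4 and Ifng held whichever array was left out. Those of Il1rn (2.64), Csf2 (1.63) and Ccl4 (1.69) ended without stimulated array 1, and those of Il1rn (2.83), Il3 (1.08), Csf2 (1.096) and Ccl1 (1.70) without stimulated array 2. Il3 also lost its call, at 1.63, without either unstimulated WT array.

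Interferon-induced GTPases formed the list with the highest share of rises. These proteins, the guanylate-binding proteins (Gbp genes) and the immunity-related GTPases (Irgm1, Irgm2, Igtp, Iigp1 and Tgtp2), coat and break down vacuoles of intracellular pathogens and are induced by interferon gamma. Interferon-responsive promoters carry a response element with a repeated GAAA core, bound by interferon regulatory factors. The stretches below, from RefSeq promoters on GRCm38.p6 (250 bases before to 50 bases after the annotated start), show the response element in the 6 called GTPase genes whose promoters hold it, because these genes moved together. Each is written 5′ to 3′ on the strand of the gene, and capitals mark a match to GAAANNGAAA on either strand.
Gbp2, chr3:142620579-142620638, plus strand: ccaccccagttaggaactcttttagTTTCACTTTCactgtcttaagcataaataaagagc
Gbp7, chr3:142530258-142530317, plus strand: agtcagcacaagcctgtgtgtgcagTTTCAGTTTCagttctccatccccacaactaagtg
Igtp, chr11:58199497-58199555, plus strand: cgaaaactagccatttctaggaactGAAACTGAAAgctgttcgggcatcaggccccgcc
Irgm2, chr11:58214888-58214947, plus strand: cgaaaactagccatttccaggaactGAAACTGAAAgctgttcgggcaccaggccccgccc
Irgm1, chr11:48871421-48871475, minus strand: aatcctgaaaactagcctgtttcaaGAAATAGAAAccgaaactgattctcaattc
Tgtp2, chr11:49064248-49064307, minus strand: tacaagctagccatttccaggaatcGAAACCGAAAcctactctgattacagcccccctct

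The matches began 59 bases before the annotated start in Gbp2, 53 in Gbp7, 34 in Igtp, 64 in Irgm2, 30 in Irgm1 and 70 in Tgtp2. The Irgm1 stretch holds another match, left in lower case, that overlaps the marked one and begins 24 bases before the start. The Igtp and Irgm2 stretches differed at 2 of 59 bases, so they are near copies and not independent. Promoters were matched for 15691 of the tested genes. GAAANNGAAA was found in 3.94% of these, in 16 of the 190 rising genes (8.42%) and 2 of the 17 falling genes (11.8%) with a promoter, and in 7 of the 9 list members with a promoter, 6 of them called. These 6 are among the 16 rising genes. Of the 8 called list members 7 had a promoter, and Iigp1, which had none, was not scored. For comparison, the AP-1 letters TGANTCA were found in 8.35% of all and 11.1% of rising genes, the kappaB letters GGGANTTNCC in 1.46% and 3.16%, the cAMP response element TGACGTCA in 2.63% and 3.16%, and the E-box CACGTG in 9.26% and 9.47%, each on both strands. Not every motif scored is reported here, so the response element is not shown to be the only one that stands out. A match is a description of the letters and does not show that a factor binds there.

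Of 14 measured genes of this list, which also holds the interferon regulatory factors Irf1 and Irf8, 8 rose and none fell, against 1.2% of all genes rising. The median change was 1.54, and 1.13 after quantile normalization, where 7 rose. Gbp2 went from 7.68 and 8.00 to 10.67 and 10.37 (2.68 ± 0.24, 6.42-fold, adjusted p = 0.000461). Iigp1 went from 8.39 and 8.54 to 11.69 and 11.26 (3.01 ± 0.34, 8.07-fold, adjusted p = 0.0011), and Igtp from 8.70 and 8.62 to 11.01 and 10.97 (2.33 ± 0.26, adjusted p = 0.0011). Their groups lay far apart, and the 3 genes kept their calls whichever array was left out. Irf8 rose by 1.92 ± 0.29 (adjusted p = 0.00548), Irgm1 by 1.90 ± 0.33 (adjusted p = 0.0129), Irgm2 by 1.81 ± 0.32 (adjusted p = 0.0157), Gbp7 by 1.76 ± 0.29 (adjusted p = 0.00995) and Tgtp2 by 1.31 ± 0.26 (adjusted p = 0.0266). Tgtp2 was not called after quantile normalization (0.91, adjusted p = 0.0646). Without stimulated array 1 the calls of Irf8 (1.88), Irgm1 (1.87), Irgm2 (1.61), Gbp7 (1.75) and Tgtp2 (1.38) ended, as they did without stimulated array 2 (1.96, 1.93, 2.01, 1.78 and 1.24). The GTPase gene Gm12250, which is outside the list and was chosen after its values were seen, went from 9.32 and 9.29 to 11.72 and 11.63.

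**Figure D3:**
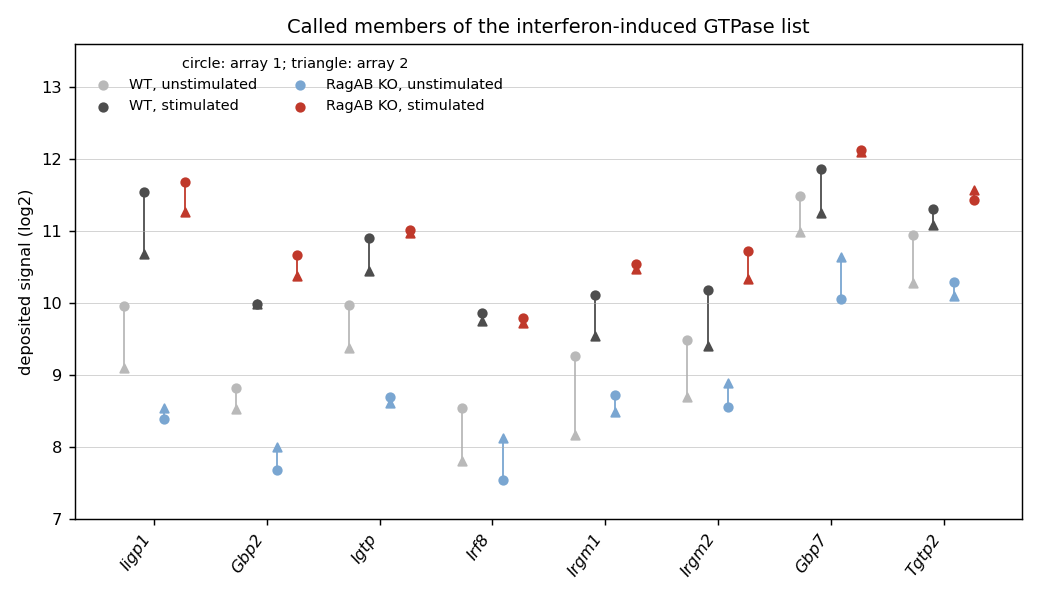
Deposited signal (log2) of the 8 called members of the interferon-induced GTPase list in WT and RagAB KO Tregs, unstimulated and stimulated, 2 arrays a group joined by a line. In all 8 genes both stimulated knockout arrays (red) lie above both unstimulated ones (blue), as in every gene called higher. For Iigp1, Gbp2, Igtp and Gbp7 the unstimulated knockout arrays also lie below the unstimulated WT arrays. The share of all genes for which they do so was not counted.

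Genes induced by type I interferon were a separate list. Of 32 measured, 1 rose and none fell on deposited values, where 1.2% of all genes rose and 0.123% fell. After quantile normalization 2 rose and 1 fell, and the median change of 0.24 turned to -0.01. The gene called on deposited values was Usp18, which encodes the protease that removes ISG15 and limits interferon receptor signalling. It read 9.87 and 10.05 without and 11.95 and 11.48 with stimulation (1.76 ± 0.31, adjusted p = 0.0148), and its call ended without stimulated array 1 (1.52) and without stimulated array 2 (1.99).

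Genes downstream of the IL-2 receptor rose in part: 4 of 20 IL-2 receptor, STAT and SOCS genes rose and none fell (median 0.89, 0.56 after quantile normalization). Cdkn1a, which encodes the cell cycle inhibitor p21, went from 7.28 and 7.77 to 10.72 and 10.87 (3.27 ± 0.31, 9.68-fold, adjusted p = 0.000461) and kept its call whichever array was left out. Socs1, a feedback inhibitor of cytokine receptors, went from 9.11 and 9.25 to 10.81 and 11.00 (1.72 ± 0.29, adjusted p = 0.0109). The kinase gene Pim3 rose by 1.44 ± 0.28 (adjusted p = 0.0236), and Il2ra is the remaining called member. The call of Socs1 ended without either stimulated array (1.82 without array 1, 1.63 without array 2). That of Pim3 ended without these (1.45 and 1.42) and without unstimulated array 1 (1.12). The call of Il2ra ended without stimulated array 1 or 2, at 1.43.

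Cell cycle genes showed no common change. None of 38 DNA replication and G1/S genes (median 0.21, 0.01 after quantile normalization) and none of 37 mitosis genes (median 0.09, -0.02 after quantile normalization) was called on deposited values. Mki67, the proliferation marker, read 7.76 and 9.67 without and 8.21 and 8.80 with stimulation (-0.21 ± 0.70, adjusted p = 0.977), so that its unstimulated arrays differed more from each other than from the stimulated ones. E2f2, a transcription factor of the S phase programme that also restrains quiescent T cells, had the largest difference of the G1/S list, from 9.39 and 9.999 to 7.67 and 7.87 (-1.92 ± 0.44, adjusted p = 0.0531). It missed the threshold on deposited values and was called at -2.18 after quantile normalization (adjusted p = 0.00775). It was also called without unstimulated array 1 (-2.23), without unstimulated array 2 (-1.62) and, at -1.92, without either stimulated WT array, without the genes of lowest signal and with all 20 arrays.

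Components of the Rag pathway and metabolic genes responded singly. Of 37 genes of the mTOR complexes and amino acid sensing, 2 rose and none fell (median 0.35, 0.10 after quantile normalization). Among all genes 1.2% rose and 0.123% fell. Rragd, whose product is the partner of RagA and RagB, went from 8.00 and 9.07 to 10.26 and 10.48 (1.83 ± 0.31, adjusted p = 0.0109). Rheb, which activates mTORC1, went from 7.99 and 8.79 to 9.64 and 10.25 (1.55 ± 0.29, adjusted p = 0.0203). In both genes unstimulated array 1 was the lowest of the 4 arrays. Of 18 amino acid transporters, Slc7a1, a carrier of arginine and lysine, rose by 1.63 ± 0.31 (adjusted p = 0.0198), and of 8 polyamine genes Odc1, which encodes the first enzyme of that pathway, by 1.63 ± 0.30 (adjusted p = 0.0176). Nampt, the rate-limiting enzyme of NAD salvage, went from 7.34 and 7.79 to 10.40 and 10.35 (2.81 ± 0.26, 7.004-fold, adjusted p = 0.000461) and kept its call whichever array was left out. Of 25 glycolysis and HIF1 genes 2 rose (median 0.55, 0.26 after quantile normalization). Hif1a went from 8.24 and 9.60 to 10.94 and 10.73 (1.91 ± 0.40, adjusted p = 0.0345). The hexokinase gene Hk2 read 7.86 and 6.92 without and 8.65 and 9.16 with stimulation (1.52 ± 0.34, adjusted p = 0.0469) and was not called after quantile normalization (1.29, adjusted p = 0.0819). Its 2 unstimulated arrays lay far apart, but below both stimulated ones. Among 14 fatty acid genes the elongase Elovl6 rose by 2.13 ± 0.37 (adjusted p = 0.0145) and the acyl-CoA synthetase Acsl4 by 1.20 ± 0.25 (adjusted p = 0.0391). Of 24 nucleotide and one-carbon genes Prps1, which makes the ribose donor of nucleotides, rose by 1.48 ± 0.32 (adjusted p = 0.0415). Chaperone genes included 3 rises among 19 heat shock genes (median 0.78, 0.47 after quantile normalization), namely Hspa9 (2.11 ± 0.45, adjusted p = 0.0393), Hsph1 (1.92 ± 0.33, adjusted p = 0.0131) and Stip1 (1.29 ± 0.28, adjusted p = 0.0453).

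Apart from Nampt, each metabolic and chaperone call named above ended when at least 1 single array was left out, though many changes held or grew. Without unstimulated array 1 the calls of Rheb (1.16), Slc7a1 (1.26), Odc1 (1.31), Hif1a (1.23), Prps1 (0.92), Acsl4 (0.90), Hspa9 (1.44) and Stip1 (0.95) ended, and that of Hk2 (1.05) ended without unstimulated array 2. Without stimulated array 1, Rheb (1.86), Rragd (1.94), Slc7a1 (1.61), Odc1 (1.23), Hk2 (1.77), Hif1a (1.81), Elovl6 (2.07), Acsl4 (1.23), Prps1 (1.47), Hspa9 (2.64), Hsph1 (2.02) and Stip1 (1.35) were not called. Without stimulated array 2 the same genes except Odc1 were not called (1.25, 1.72, 1.65, 1.26, 2.02, 2.19, 1.17, 1.49, 1.59, 1.82 and 1.23 in that order). Without either unstimulated WT array the calls of Rheb, Odc1, Hk2, Hif1a, Elovl6, Acsl4, Prps1, Hspa9 and Stip1 ended at unchanged values, and without either stimulated WT array those of Hk2, Acsl4, Prps1 and Stip1.

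Lists of growth genes had medians above that of all genes and held few or no calls. None of 44 ribosome biogenesis genes was called, although their median change was 0.78 (0.49 after quantile normalization, when the median of all genes was -0.05). Ddx18, a nucleolar helicase, had the largest change of that list, from 9.46 and 10.77 to 11.12 and 11.65 (1.27 ± 0.37, adjusted p = 0.116). Ddx18 was also not called after quantile normalization (0.88, adjusted p = 0.152), after centring on the medians (0.0835) or with the 4 knockout arrays alone (0.274). It was called at 1.92 without unstimulated array 2 and, at 1.27, without the genes of lowest signal (adjusted p = 0.0366) and with all 20 arrays (adjusted p = 0.0071). None of 26 cytosolic ribosomal protein genes was called, and their median of 0.65 fell to 0.02 after quantile normalization. Rpl8, a protein of the large subunit, showed the same drop, from 0.91 ± 0.32 to 0.05. Likewise none of 26 proteasome genes (median 0.79, 0.37 after quantile normalization), 24 translation factors (0.74 and 0.30), 20 aminoacyl-tRNA synthetases (0.64 and 0.38), 41 respiratory chain genes (0.51 and 0.11) and 20 ATF4 targets (0.20 and 0.07) was called on deposited values. Of 19 sterol synthesis genes none was called on deposited values (median 0.58, 0.24 after quantile normalization). Fdps, which makes farnesyl diphosphate, went from 8.60 and 9.26 to 9.99 and 10.40 (1.26 ± 0.29, adjusted p = 0.0544) and was called at 0.94 after quantile normalization (adjusted p = 0.0383), at 1.16 after centring on the medians, at 1.60 without unstimulated array 2 and, at 1.26, without the genes of lowest signal, with a trended prior and with all 20 arrays. Myc, the factor that drives many of these genes, read 10.95 and 11.51 without and 12.25 and 12.54 with stimulation, a difference that was not called (1.17 ± 0.31, adjusted p = 0.0903). It was called after centring on the medians (1.06), without unstimulated array 2 (1.44) and, at the same 1.17, without the 40% of genes of lowest signal (adjusted p = 0.0359) and with all 20 arrays in the fit (adjusted p = 0.00212). Myc was not called after quantile normalization (0.70, adjusted p = 0.110), with a trended prior (0.0866) or with the 4 knockout arrays alone (0.155). With all 20 arrays in the fit 2146 genes were called, against 258 as reported. In Myc, Ddx18 and Fdps both stimulated arrays lay above both unstimulated arrays. Stimulated and unstimulated knockout arrays failed to overlap, in either direction, for 45.7% of all genes.

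**Figure D4:**
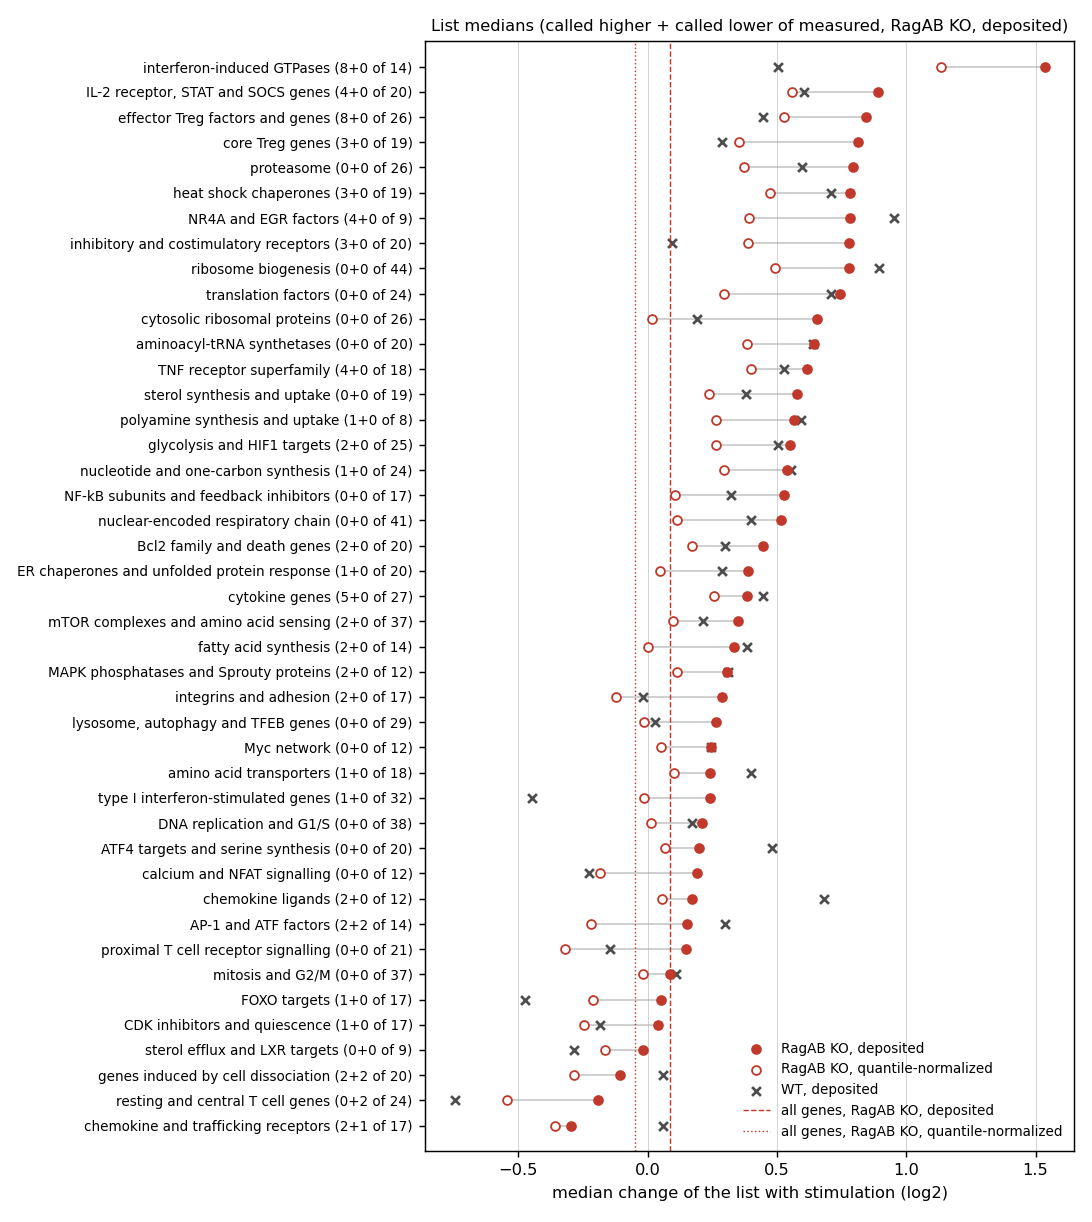
Median change with stimulation (log2) of each pathway list in RagAB KO Tregs on deposited (filled) and quantile-normalized values (open) and in WT Tregs (crosses); numbers beside each name are genes called higher plus lower of those measured, and vertical lines mark the medians of all genes. Interferon-induced GTPases lie highest on either scaling in the knockout (1.54 and 1.13). Ribosomal protein genes show the widest gap between the 2 scalings (0.65 and 0.02), and medians near 0 such as those of AP-1 genes and of integrins change sign between them.

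The 24 falling genes include regulators and receptors of resting T cells. Dtx1, which encodes the ubiquitin ligase Deltex1, a target of Notch and of NFAT in anergic cells, went from 11.18 and 11.07 to 8.13 and 7.89 (-3.12 ± 0.39, 8.67-fold lower, adjusted p = 0.00213). Ccr9, the receptor for homing to the small intestine, went from 9.79 and 9.91 to 6.96 and 7.59 (-2.57 ± 0.32, adjusted p = 0.00198). Sit1, a transmembrane adaptor that dampens T cell receptor signalling, went from 9.76 and 10.24 to 7.88 and 7.89 (-2.12 ± 0.29, adjusted p = 0.0035). These 3 and the carbonic anhydrase relative Car11 (-1.75 ± 0.22, adjusted p = 0.00232) kept their calls whichever array was left out, and their stimulated and unstimulated arrays were more than 1.5 apart. Cd7, an immunoglobulin family receptor, went from 10.48 and 10.43 to 8.57 and 8.09 (-2.12 ± 0.32, adjusted p = 0.0056), and Id3, an inhibitor of E proteins that keeps Tregs from follicular differentiation, from 8.91 and 9.04 to 6.34 and 7.37 (-2.12 ± 0.34, adjusted p = 0.00827). Further falls were those of the calpain gene Capn3 (-1.59 ± 0.29), the cytokine Flt3l, which supports dendritic cells (-1.54 ± 0.32), the peptidoglycan amidase Pglyrp2 (-1.54 ± 0.35), Podnl1 (-1.49 ± 0.31), the collagen gene Col27a1 (-1.48 ± 0.27), the glutathione transferase Gstp3 (-1.44 ± 0.27) and Clhc1 (-1.38 ± 0.25), with adjusted p-values between 0.0161 and 0.0482.

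Of 24 genes of resting and central T cells only Id3 and Dtx1 fell on deposited values, and 6 fell after quantile normalization, while none rose on either (median -0.19, -0.54 after quantile normalization). The 4 further genes, chosen after their values were seen, were Il6ra, S1pr1, Pik3ip1 and Rasgrp2, with changes between -1.54 and -1.31 after quantile normalization. The call of Cd7 ended without stimulated array 2 (-1.88) and that of Id3 without stimulated array 1 (-1.60). Capn3, Flt3l, Pglyrp2, Podnl1, Col27a1, Gstp3 and Clhc1 lost their calls without stimulated array 1 (-1.66, -1.65, -1.61, -1.42, -1.72, -1.32 and -1.66) and without stimulated array 2 (-1.52, -1.43, -1.47, -1.55, -1.23, -1.55 and -1.11). Col27a1 lost its call also without unstimulated array 1 (-1.20), and Pglyrp2 and Podnl1 lost theirs, at unchanged values, without either unstimulated WT array.

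In WT Tregs of the same experiment 195 genes were called on stimulation (1% of all genes), 93 rising and 102 falling, and the median change of all genes was 0.21. After quantile normalization 668 genes were called in WT, 250 rising and 418 falling, against 417 in the knockout. Which genotype had more calls thus depended on the scaling. Of the 258 genes called in the knockout, 64 were also called in WT, and 246 had a fitted WT change of the same sign. On deposited values the fitted knockout change was above 0 for 12080 of all 19505 genes, and 234 of the 258 called genes rose. The share of all genes with the same sign in both genotypes was not counted. The test of the difference between the genotypes called no gene (0%), with a lowest adjusted p of 0.728, while 1202 genes had an unadjusted p below 0.05. After quantile normalization it again called none (lowest adjusted p 0.444), with 2121 genes at an unadjusted p below 0.05. The median SE of the difference was 0.36. Its count depended on the fit, with 1 gene called without the 40% of genes of lowest signal, 10 with a trended prior and 25 with all 20 arrays in the fit. Without unstimulated array 2 of the knockout 387 genes were called in this test, without stimulated array 1 of WT 1 gene, and none without any 1 of the other 6 arrays.

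Ifng had the smallest p of this difference. It rose in the knockout as given above, whereas in WT it read 7.77 and 7.39 without and 7.83 and 6.35 with stimulation (-0.49 ± 0.39), a difference between the responses of 3.28 ± 0.55 (adjusted p = 0.728). Its stimulated WT arrays disagreed with each other by more than the WT change. Among the other genes with the smallest p were the GTPase gene Rap2a, with 6.15 and 6.49 against 8.09 and 8.07 in the knockout and 7.11 and 7.40 against 7.32 and 6.60 in WT (difference 2.05 ± 0.39), Ifi213 (1.91 ± 0.36), Glb1l (2.23 ± 0.43) and Ifit1bl2 (1.87 ± 0.38). Ifi213 and Ifit1bl2, 2 interferon-induced genes, went lower in WT (-2.52 and -2.37) than in the knockout (-0.61 and -0.51). In the other direction stood Col27a1 (-1.85 ± 0.38), the chemokine Ccl20 (-1.69 ± 0.36), Fibcd1 (-1.32 ± 0.35), Elavl3 (-1.35 ± 0.38) and Krt1 (-1.25 ± 0.36). Ccl20, the ligand of CCR6, read 7.16 and 7.14 against 7.36 and 7.02 in the knockout and 7.06 and 6.70 against 8.37 and 8.84 in WT. All 10 had an adjusted p of 0.728. Without unstimulated array 2 of the knockout 8 of them were called: Ifng (3.51), Ifi213 (1.99), Rap2a (2.23), Glb1l (2.59), Ifit1bl2 (1.71), Col27a1 (-2.12), Ccl20 (-1.70) and Elavl3 (-1.67). Ifng was also called without stimulated array 1 of WT (4.02) and, at 3.28, without the 40% of genes of lowest signal (adjusted p = 0.0106) and with all 20 arrays in the fit (adjusted p = 0.0222). With a trended prior Ifi213, Rap2a, Glb1l, Ifit1bl2, Col27a1 and Ccl20 were called, and with all 20 arrays Ifi213, Col27a1 and Ccl20, at unchanged differences.

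**Figure D5:**
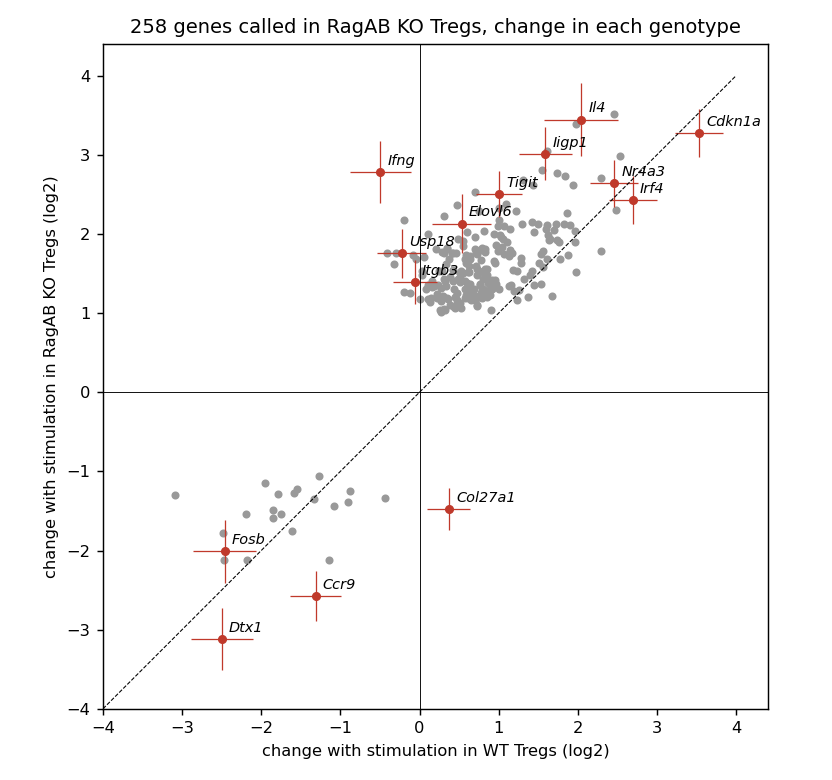
Change with stimulation in WT (x axis, log2) and RagAB KO Tregs (y axis, log2) of the 258 genes called in the knockout; bars are SEs for the labelled genes and the dashed line marks equal change. Genes were placed on the plot because they were called in the knockout, so knockout changes are favoured to be the larger. Of the 258, 246 lie in the quadrants of equal sign, a count not set against that of all genes. Ifng, Usp18, Itgb3 and Col27a1 are among the 12 outside these quadrants.

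Several knockout responses had a WT response of like size beside them. Cdkn1a rose by 3.53 ± 0.31 in WT, Irf4 by 2.70 ± 0.30 and Nr4a3 by 2.46, and Dtx1 fell by 2.50 and Fos by 2.49 on the log2 scale, all called in WT too. Iigp1 (1.59, adjusted p = 0.0423) and Gbp2 (1.31, adjusted p = 0.0198) were called in WT, while Igtp (1.00), Gbp7 (0.31) and Usp18 (-0.22) were not. Unstimulated knockout arrays read lower for several of these genes than unstimulated WT arrays, which were 9.96 and 9.09 for Iigp1, 8.82 and 8.53 for Gbp2 and 9.98 and 9.37 for Igtp, although no such difference was called (-1.06, -0.84 and -1.02, adjusted p of 0.578, 0.474 and 0.392). Stimulated knockout and WT arrays of Iigp1 overlapped, with 11.69 and 11.26 against 11.55 and 10.67. As the knockout against WT comparisons share arrays with the responses, they are not independent of them. Tigit was alike: 7.43 and 8.09 in unstimulated knockout, 9.64 and 9.20 in unstimulated WT, 10.25 and 10.28 in stimulated knockout and 10.72 and 10.13 in stimulated WT Tregs. Il4 went the other way, with 7.22 and 5.75 in unstimulated and 9.26 and 7.79 in stimulated WT arrays, so that both stimulated WT arrays lay below both stimulated knockout arrays. The difference of its stimulated levels between the genotypes was called close to the threshold (2.81, limma adjusted p = 0.0426), where 0.103% of all genes were called. Whether that call held without each array is not given here.

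The Rheb experiment offers stimulated Tregs on separate arrays, with a duration that is not given. There 1901 genes were called in Rheb1/2 KO Tregs (9.75%) and 1828 in WT Tregs (9.37%), with a median SE of the knockout response of 0.13 against 0.26 here. Of the 258 genes called in RagAB KO Tregs, 173 were called in Rheb1/2 KO Tregs, which is 67.1% of the former and 9.1% of the latter, and 168 of the 173 changed in the same direction (146 rising, 22 falling). The shares for the WT Tregs of that experiment were 58.1% and 8.21%. Named genes called in the same direction in Rheb1/2 KO Tregs included Il4 3.20, Gbp2 2.88, Iigp1 2.48, Ramp3 2.21, Zdhhc23 2.16, Mpzl1 2.01, Fosl2 1.66, Cdkn1a 1.36 and Irf4 1.24, and Dtx1 -2.33, Sit1 -2.25, Fos -2.41 and Fosb -2.96. Rising in RagAB KO but falling in Rheb1/2 KO Tregs were 5 genes, Atf3 (-0.68 in Rheb1/2 KO), Csrnp1, Egr1 (-0.41), Plk2 and Zbtb10. Nr4a1, which rose by 1.90 here, stood at 0.01 in Rheb1/2 KO Tregs (adjusted p = 0.981), and Ifng at 1.00 (adjusted p = 0.0850). The difference between the 2 experiments was not tested, and genotype, duration and experiment cannot be told apart in it.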

How the data were processed

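RNA from CD4+CD25+ Tregs was measured on Clariom S arrays after NuGEN WTA Pico amplification, per the labels' protocols. The deposited log2 values were made by the authors with RMA in Affymetrix Expression Console 1.1, per the submitters' processing notes. They give no read depth, and the number of arrays limits the precision. Of 28846 probe sets, 19572 name 1 gene. For the 55 genes with several probe sets, the one of highest mean signal over the 20 arrays was used, with their mean as an alternative, which left 19505 genes.

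A model with 4 group means was fitted with limma 3.58.1 (R 4.3.3, lmFit and eBayes) to the 8 arrays of the Rag experiment, so the groups share the estimate of spread. Tests were two-sided, and Benjamini-Hochberg adjusted p below 0.05 over all genes is a call. The 12 arrays of the Rheb experiment were fitted separately. The fit was tested on simulated data.

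The comparison and the 53 gene lists were chosen with earlier results of these data known, and no list was tested as a set. Named genes are the 15 largest rises and the 15 largest falls among called genes whose arrays do not overlap, up to 6 called members of each list by size, or the 2 largest changes where none was called, the 5 genes of smallest p in each direction of the difference between genotypes, and 10 genes named in any case. Predicted genes are not eligible. Genes outside this rule (Alcam, Insl6, Kpna1, Zfp948, Gm12250, Gm4951, the 4 genes of the resting list, Csrnp1, Plk2, Zbtb10 and Gbp7) were named after their values were seen.

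Alternatives were quantile normalization, centring on array medians, a filter on the 40% of genes of lowest signal, a trended robust prior, the 4 knockout arrays alone, the replicate number as a block, all 20 arrays in 1 fit, and leaving out each array in turn. Quantile normalization without unstimulated knockout array 1 was added after seeing the data. Signals below the 25th percentile of an array were treated as dim.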

Additional observations from a re-analysis of the deposited data

Results flagged for a closer look

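Among the genes named in the text, 5 had stimulated and unstimulated arrays that did not overlap in either genotype, with opposite directions in RagAB KO and WT. All 5 are among the genes named for the smallest p of the difference between genotypes, so the pattern follows in part from that choice. Its share among all genes is not given here, and knockout arrays alone failed to overlap for 45.7% of all genes. The difference between the genotypes (RagAB KO change minus WT change, log2) was tested with limma and was not called for any of the 5 (adjusted p = 0.728). Col27a1, a fibrillar collagen gene, had a difference of -1.85, with 9.41 and 8.86 against 7.90 and 7.41 in unstimulated and stimulated knockout arrays and 6.97 and 6.76 against 7.08 and 7.39 in WT arrays. Glb1l had a difference of 2.23, with 5.79 and 6.50 against 6.83 and 6.75 in the knockout and 7.38 and 7.13 against 6.05 and 5.28 in WT. The differences were -1.35 for Elavl3, which encodes a neuronal RNA-binding protein, -1.32 for Fibcd1 and -1.25 for Krt1, a keratin gene, and the signals of Elavl3 were below the 25th percentile of both arrays in at least 1 group. Elavl3, Fibcd1, Krt1 and Glb1l all belonged to the 40% of genes of lowest signal.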

How the results depend on the processing

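The count of genes called in RagAB KO Tregs (258, with 234 rising and 24 falling) was 417 after quantile normalization (169 falling), 419 after centring on array medians (77 falling), 529 without the genes of lowest signal (482 and 47), 553 with a trended robust prior (489 and 64), 60 with the 4 knockout arrays alone (55 and 5) and 2146 with all 20 arrays in 1 fit (1971 and 175). The added quantile normalization without unstimulated array 1, chosen after seeing the data, gave 106 rising and 91 falling genes. Leaving out 1 array gave 45 to 1948 calls, 40 to 1853 rising and 5 to 95 falling. The difference between genotypes, with 0 calls as reported and 1202 genes at an unadjusted p below 0.05, gave 1 without the genes of lowest signal, 10 with the trended prior, 25 with all 20 arrays and 0 to 387 when 1 array was left out. With the replicate block 1554 genes were called (1403 rising, 151 falling), all 258 among them, and 177 for the difference. The block also called Myc, Rel, Ddx18, Fdps, E2f2 and Ctla4 and, for the difference, Ifng, Ifi213, Rap2a, Glb1l, Ifit1bl2, Col27a1 and Ccl20. Over all genes, same-numbered arrays deviated together only weakly (correlations of 0.17 in the knockout and 0.23 in WT). The labels number the arrays but do not pair them, so they were not taken as pairs. The mean signal of the neutrophil list did follow the number in the knockout. It was 6.92 and 6.73 in unstimulated and stimulated array 1, and 9.04 and 8.76 in unstimulated and stimulated array 2. Whether same-numbered arrays share a source was not tested.

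Uncalled values that changed sign were those of Rragb, Ikzf2, Mki67 and Rpl8. The change of Ikzf2 was -0.18 after quantile normalization, -0.47 with the added setting and -0.28 to 0.75 when 1 array was left out. That of Rragb was -0.25 with the added setting and -0.26 to 0.60, that of Mki67 -1.17 to 0.75, and that of Rpl8 -0.019 with the added setting. The knockout minus WT difference of Rragb was 0.24 with the added setting, -0.51 to 0.35 without stimulation and -0.46 to 0.021 with it. Of the 53 list medians 12 changed sign after quantile normalization. The cause was not tested.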
